A study of Arabidopsis thaliana with 32 samples.

Results

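In Col-0 *Arabidopsis thaliana*, 28 probe sets on the ATH1 array were high after 3 h at 38 °C and still high after 1 h of recovery at 25 °C, in shoots and in roots. A probe set is the group of array probes that reports 1 transcript, or several alike. Members were chosen on measured values. The group mean of log2(signal + 11) had to be higher by 1.5 or more at 3 h of heat than at 0.25 h in each tissue, and less than 1 lower at 1 h of recovery than at 3 h of heat. Left out were organelle-encoded genes, HSA32, RCA and families with symbols beginning in HSP, ATHSP, Hop, ROF, ATG8 or APG8, which are chaperones, their partners and autophagy proteins for the most part. Of 22746 probe sets other than controls, 266 (1.17%) met the rise, and 28 (0.123%) met both conditions.

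All plants were wild type Col-0, grown at 24 °C in 16 h days. On day 16, at 3 h of light, they were brought to 38 °C. The groups were shoots and roots at 0.25, 0.5, 1 and 3 h of heat, and at 1, 3, 9 and 21 h after 3 h of heat had ended, with 2 arrays per group and 32 arrays in all. Unheated plants were not analysed here, so recovery was measured against 21 h, and sampling times are not matched by hour of the day. Whether replicates came from separate plants is not stated in the labels. P-values therefore cover the spread between replicate arrays, and that spread may be technical.

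Heat unfolds proteins and releases heat shock factors, which switch on genes for chaperones, the proteins that hold or refold damaged clients. This response is normally switched off soon after cooling, as free chaperones bind the factors again and heat-induced mRNAs are degraded. Transcripts that stay behind longer are of interest because a plant that has been heated once withstands a later heat for some time, a state called acquired thermotolerance.

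Signals were the deposited MAS5 values, a linear measure of brightness. Median signal per array was 31.7 to 49.0, and replicate arrays correlated at 0.984 to 0.993 across probe sets on the log2 scale. The markers that could be named followed the tissue labels: 3 shoot genes (LHCB4.1, CHLM and LHCB4.3) summed to 5902 to 8904 in shoots and to 182 to 450 in roots, and 3 root genes (PYK10, EXPA7 and EXPA18) to 1903 to 3805 in roots and to 197 to 925 in shoots. Signal from 25S ribosomal RNA, a sign of how the RNA was prepared and labelled, moved with time. In shoots it was 1269.5 to 1308 at 3 h of recovery and 100.2 to 108 at 21 h, and in roots 2134 to 2320 and 339 to 572. The actin 3′/5′ ratio at these times was 7.03 to 10.4 and 5.38 to 5.40 in shoots, and 13.3 to 13.7 and 11.9 to 13.1 in roots. From 0.5 h to 1 h of heat these signs moved as well. In shoots 25S signal was 1789 to 2044 at 1 h and 110.03 to 114 at 0.5 h, and in roots 2214 to 2429 and 2230 to 2601. The actin ratio was 4.72 to 14.9 at 1 h and 3.82 to 5.86 at 0.5 h in shoots, and 19.999 to 20.7 and 14.7 to 15.004 in roots. The part of these signs in the differences between 3 h and 21 h, in the early step of the heat and in the tissue differences of both was not tested. At 9 h of recovery the 2 shoot arrays stood apart in 25S signal, at 1270 and 88.6, while the 2 root arrays had 571 and 279. In whole organs, fewer cells of a type and less RNA per cell cannot be told apart.

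Of the 28 members, 16 were matched to a single gene, 1 (266806_at) to AT1G07170 and AT2G30000 together, and 11 to none. The 11 without a gene could not be checked against the organelle genes and the families left out, so some of them may belong to either, and counts of the members with 1 gene are given apart. The gene tables carry no descriptions, so all 16 fell under "other or unknown" in the lists of roles, and the roles below are textbook background. They fall into protein handling (AT5G58110, AT3G24100, AT3G26580, AT3G47160), translation and vesicle traffic (AT1G36730, AT3G62560), regulators (AT1G76590, AT1G68300), secretory-pathway products (PDF1.4, AT5G05480) and genes of no stated role (AT2G38465, AT1G13990, AT1G75860, AT2G21820). AT2G07707 and AT2G07719 lie in the stretch of nuclear chromosome 2 that carries a copy of mitochondrial DNA. Of the 9 organelle probe sets left out, 5 also list a locus of that stretch. Signal of the nuclear and mitochondrial copies therefore cannot be told apart for these 2 genes, and the counts called in each comparison are given without them where they change.

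By their choice, members were well up at 3 h of heat. The median rise over 0.25 h was 2.07 on the log2 scale in shoots and 1.92 in roots. Just inside the threshold for the rise were AT2G21820 (1.52, the lower of the 2 tissues), AT1G13990 (1.53) and AT3G62560 (1.55), and just outside were AT2G07718 (1.49), AT1G21680 (1.45) and AT5G62200 (1.39). For the change at 1 h of recovery, AT2G07719 (−0.87), AT2G21820 (−0.80) and AT5G05480 (−0.75) lay inside, and AT3G51500 (−1.03), CUTA (−1.07) and AT3G04000 (−1.09) outside. These values chose the members and are no findings.

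The highest group mean lay at 3 h of heat for 21 members in shoots and 26 in roots. In shoots AT3G47160, AT3G26580 and AT1G13990 peaked at 1 h of recovery, and 4 members peaked at 3 h of recovery, among them AT2G38465. In roots 261613_at peaked at 1 h of recovery and AT2G38465 at 9 h. The rule asked for high values at 3 h of heat and 1 h of recovery, so peaks there follow in large part from the choice. Neither time was part of any test, and these peaks are given as description. Some are near ties, such as AT3G26580 in shoots, with mean log2 values of 10.44 at 1 h of recovery and 10.41 at 3 h.

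**Figure D1:**
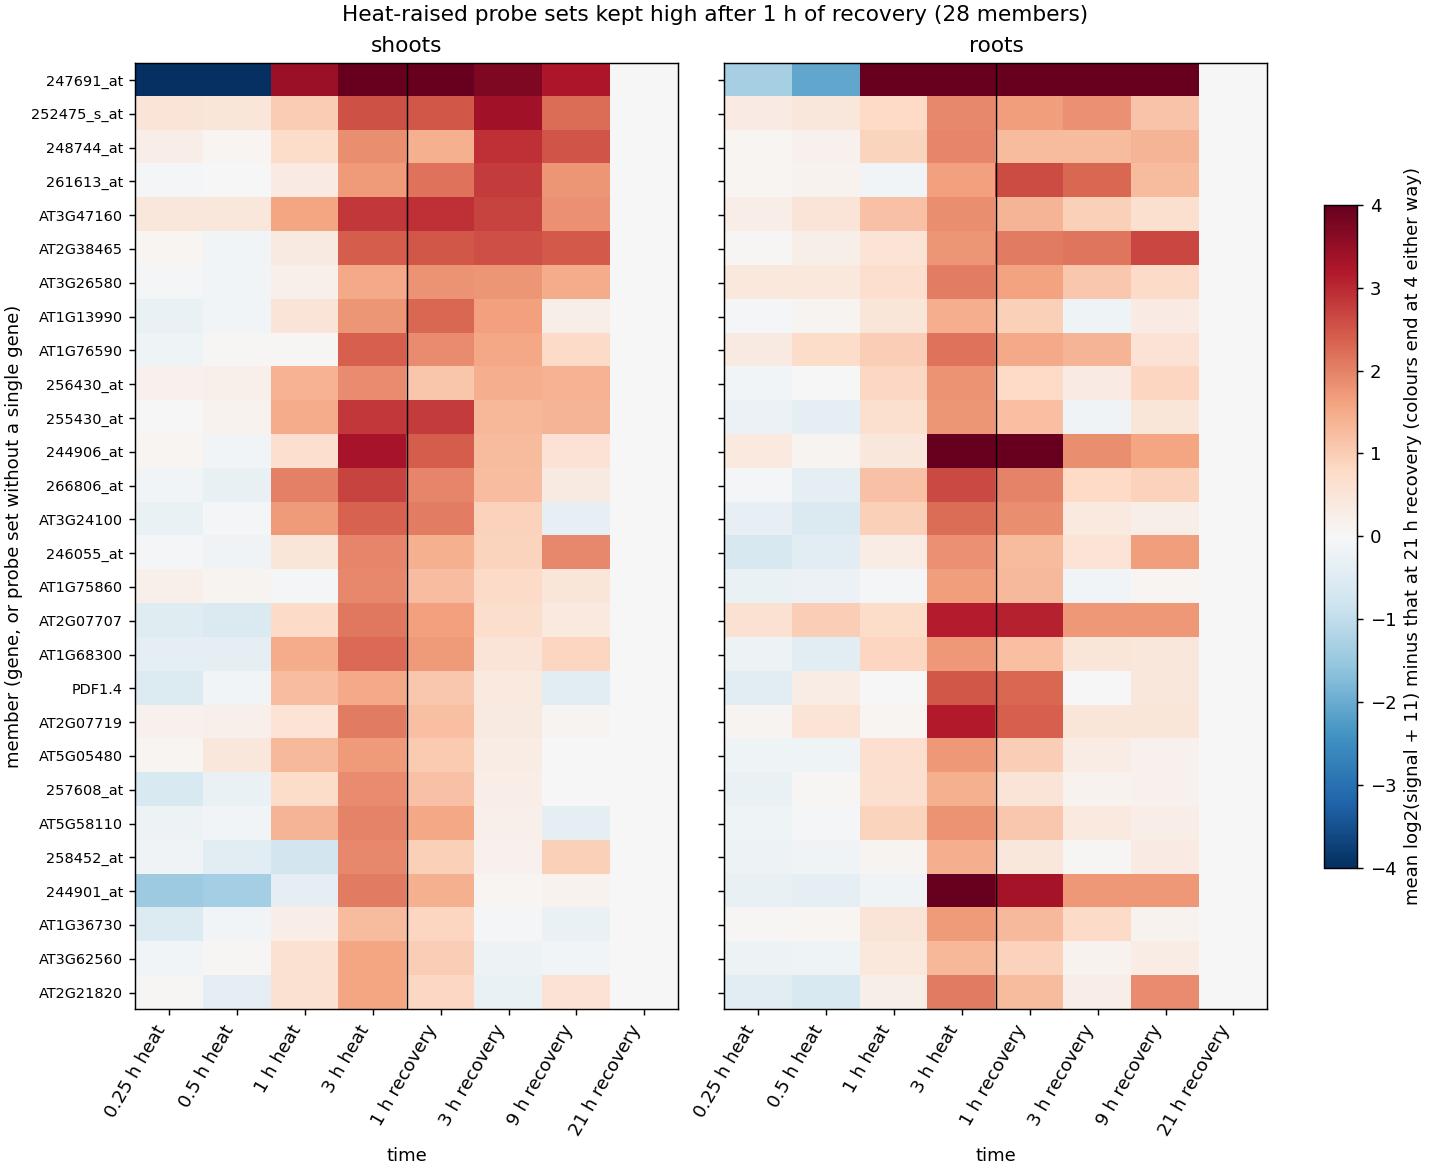
Mean log2(signal + 11) of each of the 28 members (down) at the 8 times (across), minus its value at 21 h of recovery, in shoots (left) and roots (right), with members ordered by their difference at 3 h of recovery in shoots. The vertical line separates heat from recovery; in shoots, members near the top stay red through 9 h of recovery, and most near the bottom are pale by 3 h.

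Most of the members' rise came after 1 h of heat. In shoots they had covered a median of 0.559% of their 0.25 h to 3 h rise (log2 scale) by 0.5 h of heat and 39.99% by 1 h. In roots these shares were 3.69% and 35.5%. The natural comparison is the 197 probe sets that met the same rise but were at least 1 lower at 1 h of recovery than at 3 h of heat in both tissues, here called the early-dropping set. It had covered a median of 99.1% in shoots and 82.2% in roots by 1 h. At least 50% of the rise was in place by 1 h for 10 of 28 members in shoots and 6 of 28 in roots, against 176 and 162 of the 197. These shares use the 0.25 h and 3 h arrays of the rule and are given as description.

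The step from 0.5 h to 1 h of heat used arrays that played no part in choosing the members. It lies within the 0.25 h to 3 h rise that the rule asked for, so more calls higher than over all probe sets follow in part from the choice. A probe set is called here where limma's adjusted p was below 0.05 and the log2 difference was at least 1 in size. In shoots 11 of 28 members were called higher at 1 h than at 0.5 h, where 2.43% of all 16782 probe sets tested were, and 0 were called lower (1.41% of all). In roots 5 were called higher (2.16% of all) and 0 lower (0.953% of all). Differences below 0 at an unadjusted p under 0.05 were found for 1 member in each tissue. The median difference of members was 0.82 in shoots and 0.51 in roots, against 1.89 and 1.53 in the early-dropping set, of which 163 and 145 of 197 were called higher, and −0.11 and −0.13 over all probe sets tested. Without AT2G07707 and AT2G07719 the count in shoots was 10 of 26. Between these times 25S signal rose in shoots, and its ranges overlapped in roots. The actin ratio had overlapping ranges in shoots and rose without overlap in roots. The part of either sign in these counts was not tested.

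**Figure D2:**
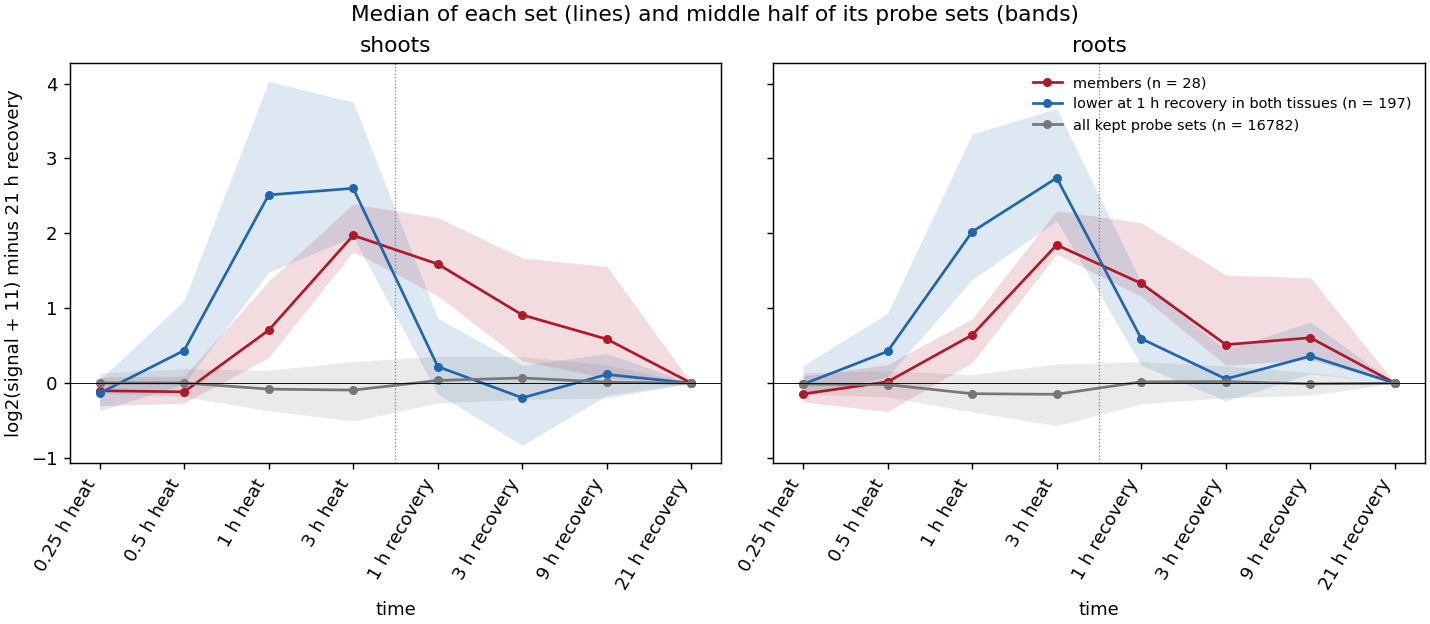
Median log2(signal + 11) minus 21 h of recovery (vertical) at the 8 times (horizontal) in shoots (left) and roots (right), for the 28 members, the 197 early-dropping probe sets and all 16782 tested. Bands run from the lower to the upper quartile of each set. By 1 h of heat the early-dropping median is at 2.51 in shoots and the members' at 0.71. At 3 h of recovery in shoots the members' median is 0.91 and the early-dropping median −0.19. The separation at 1 h of recovery follows from the rule, and later separation may carry over from it in part.

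At 3 h of recovery, on arrays the rule did not use, many members were still above their level at 21 h. In shoots 13 of 28 were called higher, where 5.64% of all probe sets tested were, and 0 lower (4.66% of all). In roots 10 of 28 were called higher (1.8% of all) and 0 lower (1.39% of all). Below 0 at an unadjusted p under 0.05 was 1 member in shoots and 0 in roots. The median difference was 0.91 in shoots and 0.51 in roots, against −0.19 and 0.06 in the early-dropping set and 0.07 and 0.02 over all probe sets tested. Of the early-dropping set, 18 were called higher and 41 lower in shoots, and 21 and 4 in roots. The 2 sets were split by their fall at 1 h of recovery, so the gap between them at 3 h may carry over from that split in part. Without AT2G07707 and AT2G07719 the counts of members were 13 of 26 in shoots and 9 of 26 in roots.

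Tissues overlapped in part: 8 members were called higher at 3 h in both tissues (0.906% of all probe sets tested), 5 in shoots and not in roots (4.74% of all), 2 in roots and not in shoots (0.894% of all), and 13 in neither. Of the 8, 3 had a single gene, AT2G38465, AT3G26580 and AT1G76590. The other 5 had none.

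At 9 h the counts were 10 of 28 called higher in shoots (2.95% of all) and 10 of 28 in roots (1.11% of all), with 0 lower in either (2.24% and 0.924% of all). Differences below 0 at an unadjusted p under 0.05 numbered 3 in shoots and 0 in roots. Every one of the 28 had a difference above 0 in roots, and 21 had one in shoots. The medians were 0.59 in shoots and 0.61 in roots, against 0.12 and 0.36 in the early-dropping set, of which 22 and 43 of 197 were called higher. This gap too may carry over in part from the split at 1 h of recovery. At 9 h, 6 members were called higher in both tissues (0.346% of all), of which AT2G38465 had a single gene, 4 in shoots and not in roots (2.6% of all), 4 in roots and not in shoots (0.763% of all), and 14 in neither. Without AT2G07707 and AT2G07719 the count in roots was 9 of 26. The comparisons of 3 h and of 9 h share the 21 h arrays, so they are not independent.

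**Figure D3:**
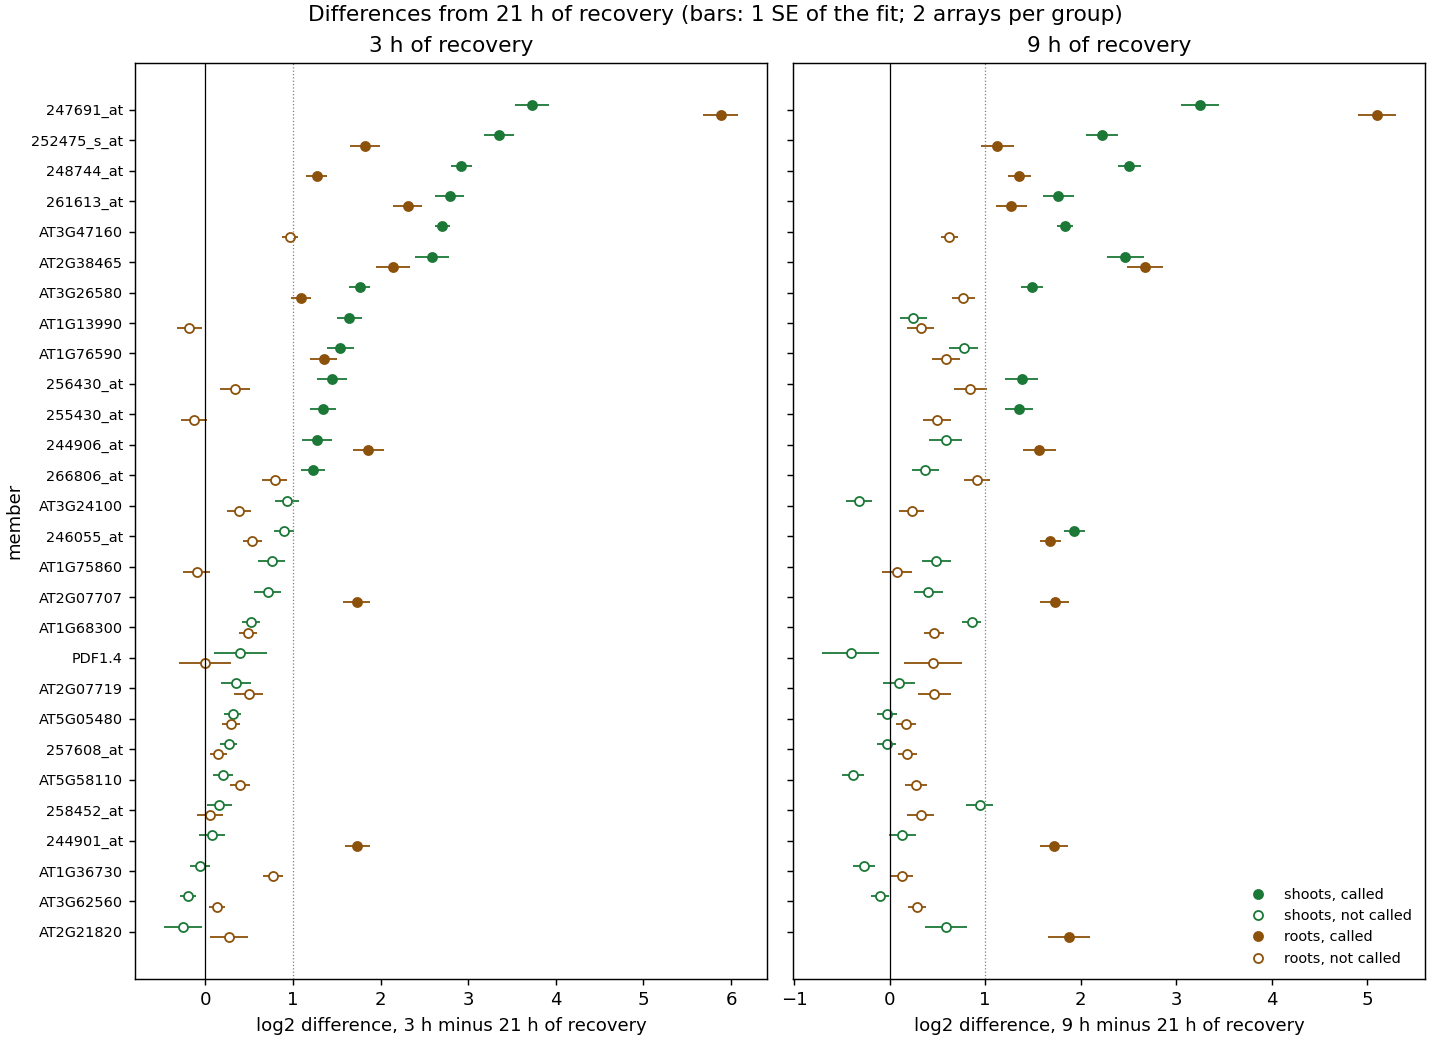
Log2 difference from 21 h of recovery (horizontal) of each member (down) at 3 h (left panel) and 9 h (right panel), shoots in green and roots in brown. Filled points were called (adjusted p below 0.05 and a difference of at least 1, dotted line), bars are 1 SE of the fit, and each group has 2 arrays. Called points number 13 in shoots and 10 in roots at 3 h, and 10 in each tissue at 9 h.

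AT2G38465, for which no role is given here, was called in both tissues at 3 h and at 9 h. In shoots its signal over the 8 times was 3.98 and 4.51 at 0.25 h of heat, 1.11 and 3.26 at 0.5 h, 5.64 and 9.02 at 1 h, 76.5 and 55.2 at 3 h, 70.4 and 66.3 at 1 h of recovery, 73.3 and 76.6 at 3 h, 74.0 and 62.8 at 9 h. At 21 h it was 4.79 and 1.99. Root arrays gave 13.8 and 13.2, then 21.1 and 12.8, 20.3 and 26.7, and 68.3 and 69.1 in the heat, and 75.7 and 105, 87.9 and 98.6, 180.1 and 107, and 13.4 and 11.7 in recovery. In each tissue, all arrays of 3 h and 9 h of recovery stood above all arrays of 0.5 h and 1 h of heat and of 21 h. The rule used none of these arrays. It did use those of 0.25 h and 3 h of heat and of 1 h of recovery, so their order follows from the choice. The difference from 21 h was 2.58 ± 0.19 (SE) at 3 h (adjusted p = 4.58e-11) and 2.47 at 9 h (2.48e-10) in shoots, and 2.14 ± 0.19 (1.67e-08) and 2.67 (2.65e-10) in roots. The 2 shoot arrays at 9 h, which differ in 25S signal, gave 74.0 and 62.8. Its step from 3 h to 9 h was not called in either tissue (−0.12 in shoots, 0.53 in roots). The shoot level at 21 h lies below the constant of 11 added before the logarithm, which makes the log2 difference smaller than that of the signals. With a constant of 44 the differences at 3 h and 9 h were 1.33 and 1.24 in shoots and 1.28 and 1.70 in roots, still called.

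**Figure D4:**
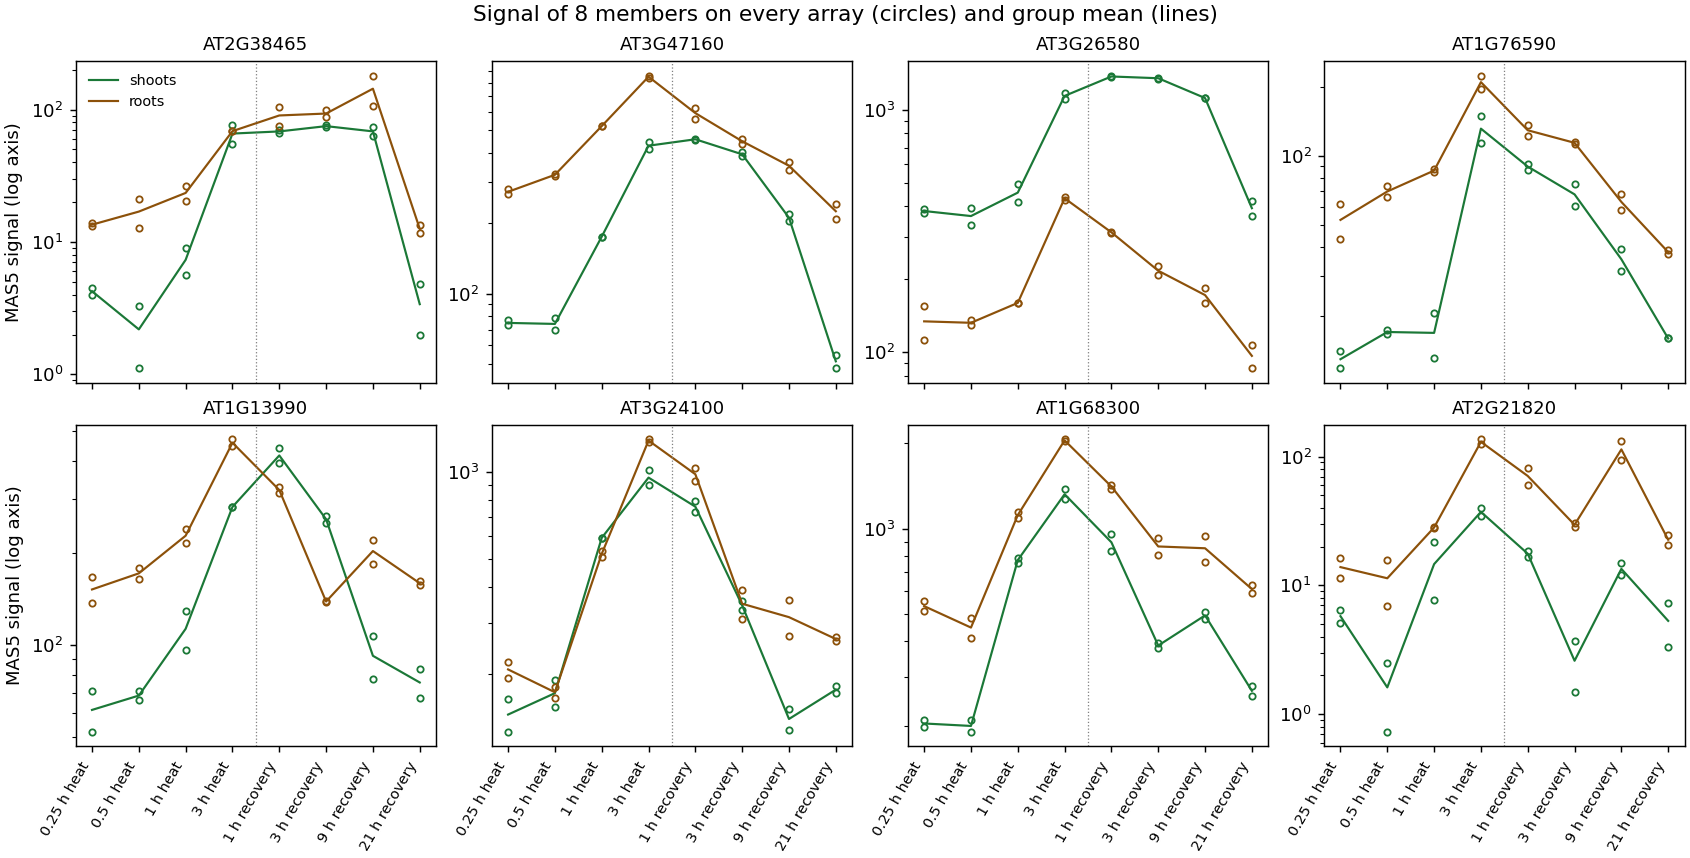
MAS5 signal (vertical, log axis) on every array (circles) and group means (lines) of 8 members at the 8 times, shoots in green and roots in brown. AT2G38465 stays flat from 3 h of heat to 9 h of recovery in shoots, AT3G24100 and AT1G68300 are down by 3 h of recovery, and AT2G21820 has a second high value at 9 h in roots.

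Among the genes of protein handling, AT3G26580 encodes a protein with tetratricopeptide repeats, a fold that binds partner proteins, including chaperones. Its shoot signal was 1349 and 1356 at 3 h of recovery and 1122 and 1119.5 at 9 h, against 423 and 364 at 21 h. In roots it had 208 and 226 at 3 h and 185 and 159 at 9 h, against 107 and 85.9 at 21 h. Shoot arrays at 3 h of recovery were above those at 3 h of heat (1114 and 1174), and root arrays were below theirs (426 and 438). The difference from 21 h at 3 h was 1.76 ± 0.12 in shoots (adjusted p = 7.55e-12) and 1.09 ± 0.12 in roots (3.2e-07). The root difference was 0.95 without roots 21 h replicate 2 and 0.90 with a constant of 44, and was then not called. At 9 h it was above 21 h by 1.49 in shoots, which was called, and by 0.77 in roots, which was not. The difference between tissues at 3 h was 0.67 ± 0.17 (adjusted p = 0.0041), short of the size needed for a call.

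AT3G47160 belongs to the RING family, most of whose members attach ubiquitin to proteins to be broken down. Shoot arrays had 402 and 387 at 3 h of recovery and 218 and 204 at 9 h, against 54.6 and 48.0 at 21 h. Root arrays had 437 and 460.2 at 3 h and 366 and 339 at 9 h, against 242 and 208 at 21 h. Shoot arrays stood a little below root arrays at 3 h and far below them at 21 h. In shoots it was higher than at 21 h by 2.70 ± 0.09 at 3 h (adjusted p = 9.39e-18) and by 1.84 ± 0.09 at 9 h, with a difference of −0.87 between 9 h and 3 h. In roots the difference at 3 h was 0.96 ± 0.09, not called, although it passes after quantile normalization (1.11) and without roots 3 h replicate 1 (1.00) or 21 h replicate 1 (1.07). The tissue difference itself was called (1.74 ± 0.12, adjusted p = 1.64e-10).

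AT5G58110 is annotated as a chaperone-binding activator of ATPase activity, the class of protein that speeds the HSP90 cycle. At 3 h of heat it stood at 1527 and 1550.1 in shoots and at 2213 and 2693 in roots. By 3 h of recovery it had 453 and 422 in shoots, against 389 and 369 at 21 h, and 879 and 958 in roots, against 721 and 673. Neither difference was called (0.20 ± 0.12 in shoots, 0.39 ± 0.12 in roots). It was one of the early members, at 920.4 and 1055 at 1 h of heat in shoots, against 371 and 327 at 0.5 h, where it rose by 1.47 ± 0.12 (adjusted p = 4.03e-10). In roots it had 1326 and 1249.8 at 1 h, against 655 and 707 at 0.5 h, a difference of 0.91 that is called only after 75th percentile scaling (1.02).

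AT3G24100 is of the SERF family, small charged proteins that promote protein aggregation in nematodes. It had 592 and 591 at 1 h of heat in shoots, against 189 and 153 at 0.5 h, and 509 and 532 in roots, against 180.0 and 165. It rose in both tissues (1.73 ± 0.13 in shoots, 1.54 ± 0.13 in roots). In recovery, shoots had 333 and 357 at 3 h, then 128 and 151 at 9 h, with 171 and 181 at 21 h. It fell by 1.25 ± 0.13 between 3 h and 9 h in shoots (adjusted p = 7.65e-08). In roots it had 359 and 269 at 9 h, against 390.2 and 309 at 3 h, a difference of −0.15.

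Neither gene of translation and traffic was called at 3 h of recovery. AT1G36730 is related to translation initiation factors of the eIF5 type, which act as ribosomes find the start codon. It had 241 and 266 at 3 h of recovery in shoots, against 278 and 252 at 21 h, and 397 and 425 in roots, against 226 and 246. Shoot arrays overlapped and root arrays did not. The difference in roots was 0.77 ± 0.11 (adjusted p = 1.8e-05), under the size for a call, and in shoots −0.06. AT3G62560 encodes a small GTPase of the Sar1 type, which starts the budding of transport vesicles from the endoplasmic reticulum. It had 187 and 224 at 3 h of recovery in shoots, against 248 and 227 at 21 h, and 249 and 237 in roots, against 221 and 221. Its differences of −0.20 and 0.13 were not called, nor was its step from 0.5 h to 1 h of heat (0.55 in shoots, 0.59 in roots).

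The 2 regulators differed in timing. AT1G76590 is of the PLATZ family of plant zinc-binding proteins, which act on transcription. It had 20.6 and 13.2 at 1 h of heat in shoots, against 16.7 and 17.4 at 0.5 h, a difference of −0.02. At 3 h of heat it stood at 113 and 149. At 3 h of recovery it had 75.3 and 60.3 in shoots, against 16.0 and 16.0 at 21 h, and 113 and 115 in roots, against 38.6 and 37.4. At 3 h it was higher than at 21 h by 1.54 ± 0.15 in shoots (adjusted p = 6.39e-09) and by 1.35 ± 0.15 in roots (4.46e-07), with 0.90 and 0.94, not called, when the constant is 44. At 9 h it had 39.3 and 31.5 in shoots and 68.0 and 57.7 in roots, above both 21 h arrays in each tissue but not called (0.78 and 0.59).

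AT1G68300 is of the universal stress protein family, small nucleotide-binding proteins found from bacteria to plants. It had 758 and 789.6 at 1 h of heat in shoots, against 210.1 and 191 at 0.5 h, and 1146 and 1086 in roots, against 484 and 410.1. With 1.89 ± 0.10 (adjusted p = 2.26e-13) it had the largest early rise of single-gene members in shoots, and in roots it rose by 1.30 ± 0.10. At 3 h of recovery it had 377 and 395 in shoots, against 257 and 277 at 21 h, and 805 and 924 in roots, against 631 and 591. All 4 differences from 21 h were under the size for a call (0.51 and 0.86 at 3 h and 9 h in shoots, 0.49 and 0.46 in roots).

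PDF1.4 encodes a small cysteine-rich defensin-like protein of the kind that plants secrete. It had the largest SE of the named members, with 92.1 and 49.6 at 1 h of heat in shoots, against 13.5 and 28.6 at 0.5 h, and 30.0 and 72.8 in roots, against 47.3 and 77.7. It rose in shoots (1.34 ± 0.30, adjusted p = 0.00164) and was −0.29 ± 0.30 in roots, not called. The call in shoots is lost without shoots 0.5 h replicate 1 (0.995) or shoots 1 h replicate 1 (0.96), and with a constant of 44 (0.80). The tissue difference was 1.64 ± 0.42 (adjusted p = 0.018), and is not called without shoots 0.5 h replicate 1, shoots 1 h replicate 1, roots 0.5 h replicate 2 or roots 1 h replicate 1, in a range of 1.12 to 1.33, or with a constant of 44 (0.99). In roots it had 293 and 338 at 3 h of heat and 281 and 275 at 1 h of recovery, then 43.3 and 51.0 at 3 h, against 55.1 and 40.6 at 21 h. AT5G05480 encodes a protein like peptide amidase A, an enzyme that removes glycans from proteins. It had 57.1 and 58.9 at 3 h of recovery in shoots, against 45.2 and 44.1 at 21 h, and 117 and 107 in roots, against 90.0 and 88.5. Arrays did not overlap in either tissue, but the differences of 0.31 and 0.29 were under the size for a call.

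Of the single-gene members, AT1G13990 had the largest tissue difference in the step of 3 h over 21 h of recovery. Its shoot signal was 265 and 252 at 3 h of recovery and 77.4 and 107 at 9 h, against 83.7 and 67.5 at 21 h. In roots it had 138 and 140.0 at 3 h and 222 and 185 at 9 h, against 162 and 157 at 21 h. The shoot arrays were high at 3 h and close to 21 h at 9 h, and the root arrays were lower at 3 h than at 9 h or 21 h. At 3 h it was higher than at 21 h by 1.64 ± 0.14 in shoots (adjusted p = 7.74e-10), and the difference in roots was −0.18 ± 0.14 (0.382). The tissue difference was called, at 1.83 ± 0.20 (adjusted p = 2.01e-07). Between 3 h and 9 h it fell by 1.40 ± 0.14 in shoots (3.76e-08), while the root difference was 0.51.

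AT2G21820 had a second high in roots. Its root signal was 124 and 136 at 3 h of heat, 59.9 and 81.5 at 1 h of recovery, 30.8 and 28.3 at 3 h, 133 and 94.4 at 9 h. At 21 h it was 24.7 and 20.6. The 9 h arrays stand apart from those of 3 h and 21 h without overlap. At 9 h it rose by 1.60 ± 0.22 over 3 h (adjusted p = 6.68e-06) and was higher than at 21 h by 1.88 ± 0.22 (8.62e-07; 1.23 with a constant of 44). In shoots it had 14.9 and 11.9 at 9 h, against 3.72 and 1.47 at 3 h and 7.28 and 3.32 at 21 h, low signals near or below the added constant, and no difference was called (0.85 over 3 h, 0.59 over 21 h). AT1G75860 had 113 and 131 at 3 h of recovery in shoots, against 66.3 and 68.9 at 21 h, and 116 and 134 in roots, against 131 and 138. Its differences, 0.75 ± 0.16 and −0.10, were not called. At 1 h of heat it still had 60.5 and 69.5 in shoots and 127 and 125 in roots, and at 3 h 248 and 326 in shoots and 449 and 465 in roots.

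In roots the probe set of AT2G07707 had 237 and 295 at 3 h of recovery, with 257 and 273 at 9 h, against 63.6 and 82.1 at 21 h. It was higher than at 21 h by 1.73 ± 0.15 at both times. In shoots it had 269 and 261 at 3 h, against 147 and 169 at 21 h, and the difference of 0.71 was not called. The tissue difference was −1.02 ± 0.21 (adjusted p = 0.000875), just past the size for a call, and fell short of it with a constant of 44 (−0.79) or on leaving out any 1 of 4 arrays: shoots 3 h replicate 2, roots 3 h replicate 2, shoots 21 h replicate 2 or roots 21 h replicate 1 (−0.996 to −0.857). In the heat the tissue difference had the other sign. The probe set had 264 and 289.7 at 1 h in shoots, against 82.2 and 124 at 0.5 h, and 112 and 146 in roots, against 171 and 137. It rose in shoots (1.36 ± 0.15), was −0.24 in roots, and the tissue difference was 1.60 ± 0.21 (4.27e-05). AT2G07719 had 32.1 and 45.4 at 3 h of recovery in shoots, against 28.4 and 27.0 at 21 h, and 50.4 and 55.7 in roots, against 34.8 and 34.2, with differences of 0.35 and 0.49, neither called.

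Of the 12 members without a single gene, 8 were called higher at 3 h of recovery in shoots and 6 in roots, against 5 and 4 of the 16 with 1 gene. At 9 h these counts were 7 and 7, against 3 and 3, and in the early step of the heat 5 and 3, against 6 and 2. These differences were not tested. They were 244901_at, 244906_at, 246055_at, 247691_at, 248744_at, 252475_s_at, 255430_at, 256430_at, 257608_at, 258452_at, 261613_at and 266806_at, and their differences at 3 h spanned 0.07 to 3.73 in shoots and −0.13 to 5.88 in roots. Of these 247691_at, picked out after its values were seen, changed most. It has no matched gene, so it may belong to a family that the rule leaves out, which could not be checked. The upper ends of both ranges are its values. The signal of 247691_at in shoots was 2.99 and 3.12 at 0.5 h of heat, 2646 and 2679.5 at 1 h, 5189 and 5229 at 3 h, 3235 and 3242 at 3 h of recovery and 285 and 192 at 21 h. Root arrays had 3421 and 3678 at 3 h of recovery, against 70.6 and 33.7 at 21 h. Its level after 21 h in shoots was still above that at 0.5 h of heat, on both arrays.

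Between 3 h and 9 h of recovery fewer members were called than against 21 h, but many had smaller differences. At an unadjusted p under 0.05, 15 members lay below 0 and 4 above 0 in shoots, and 7 and 6 in roots. In shoots 4 of 28 were called lower (2.54% of all) and 1 higher (2.99% of all), and in roots 1 lower (2.17% of all) and 2 higher (1.28% of all). The medians were −0.30 and −0.01, against 0.33 and 0.34 in the early-dropping set, of which 45 and 33 of 197 were called higher. Lower in shoots were AT1G13990, AT3G24100, 252475_s_at and 261613_at, and lower in roots 261613_at, which had 94.7 and 85.7 at 9 h, against 206 and 186 at 3 h. For 261613_at the call is lost in shoots after either other scaling or without shoots 3 h replicate 1 or 9 h replicate 1, in roots without roots 3 h replicate 1 or 9 h replicate 2 (−0.997 to −0.90 over these), and in both with a constant of 44 (−0.77 and −0.84), which also ends that of 252475_s_at (−0.95). Higher in both tissues was 246055_at, also named after its values were seen. It had 388 and 384 at 9 h in shoots, against 185 and 179 at 3 h, and 565 and 455 in roots, against 209 and 238. Its differences were 1.04 ± 0.11 in shoots, not called after quantile normalization (0.99) or with a constant of 44 (0.93), and 1.15 ± 0.11 in roots, not called without roots 9 h replicate 1 (0.99). The 2 shoot arrays at 9 h differ in 25S signal, and the part of that signal in the shoot difference was not tested.

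The difference between tissues in the 3 h step over 21 h was called for 9 members, 6 with a larger value in shoots (4.86% of all) and 3 with a larger value in roots (4.27% of all; 2 without AT2G07707 and AT2G07719). For the step from 0.5 h to 1 h of heat it was called for PDF1.4 and AT2G07707, both larger in shoots (1.66% of all; 1 without AT2G07707 and AT2G07719), and for 0 in roots (1.09% of all, with 1 member below 0 at an unadjusted p under 0.05). At 21 h itself, 4 members were called higher in shoots than in roots (15.5% of all; 3 without AT2G07707 and AT2G07719) and 5 lower (21.7% of all). Of these, AT3G26580 was higher in shoots (1.91 ± 0.12), as was AT2G07707 (1.02, with 0.79 at a constant of 44, 0.93 without shoots 21 h replicate 2 and 0.86 without roots 21 h replicate 1). AT3G47160 was lower in shoots (−1.92 ± 0.09), as were AT1G68300 (−1.16, and −0.99 after 75th percentile scaling) and AT2G21820 (−1.05, short of a call after either other scaling, with a constant of 44, and without shoots 21 h replicate 2 or roots 21 h replicate 1, in a range of −0.96 to −0.43).

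A list of 31 loci, drawn up with acquired thermotolerance and heat memory in mind, was also looked at. The rule left out HSA32 and ATHSP22.0 by name, and also the ROF family, to which AT5G48570 (ROF2) belongs. Whatever their values, these could not be members. For most of the 31 loci no probe set was matched to that locus alone. The 11 members without a gene could not be checked against those loci, so whether any of them is a member is not known. The other 6 loci had a named probe set, and 0 of these 6 were members. They were BOB1, a chaperone-like NudC domain protein, AT5G48570 (ROF2), a peptidyl-prolyl isomerase that binds HSP90, HSA32, which slows the decay of acquired thermotolerance, ATHSP22.0, a small heat shock protein of the endoplasmic reticulum, Fes1A, a partner of HSP70, and PUB19, a ubiquitin ligase. At 1 h against 0.5 h of heat 5 of 6 were called higher in each tissue (2.43% of all in shoots, 2.16% in roots). The medians were 2.93 in shoots and 2.32 in roots. At 3 h against 21 h of recovery, 1 (ATHSP22.0) was called higher in shoots (5.64% of all). In roots 2 were (ATHSP22.0 and HSA32; 1.8% of all). The medians were −0.33 in shoots and 0.85 in roots. At 9 h the counts called higher were 3 in shoots (2.95% of all) and 4 in roots (1.11% of all). HSA32 was 2.39 above 21 h in roots at 9 h, and 1.10 at 3 h. ATHSP22.0 met both conditions and was left out by its name. Its differences from 21 h were 5.24 in shoots and 4.89 in roots at 3 h, and 3.73 and 4.53 at 9 h.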

How the data were processed

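Total RNA of 32 samples was labelled with biotin and hybridised to 1-colour ATH1 arrays. The deposited values are linear signal made by the authors with MAS5, per the submitters' processing notes; its version is not given in the sources used here. From the values, each array has a 2% trimmed mean near 100. Arrays were not normalized again. Of 22810 probe sets, 64 controls were left out. A platform table gave 1 gene for 13513, several for 503 and none for 8730; names were updated through a RefSeq gene table.

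Members and lists were chosen with earlier results of these data known. Organelle-encoded members were recognised by symbol. HSP17.6B and HSP17.6C, listed by locus in the table, were left out with ATHSP22.0, so that 12 of 40 probe sets that met both conditions were removed. Named genes followed a rule on rank in each comparison, which took in all 16 members with 1 gene.

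Values were log2(signal + 11). A probe set was tested where 1 group or more had both arrays over the array's 40th percentile (16782, all 28 members among them). limma 3.58.1 under R 4.3.3 fitted the 16 group means over the 32 arrays (lmFit, eBayes with trend; 16 residual degrees of freedom, median prior 8.27) over 11 contrasts, none of which uses arrays of 0.25 h heat, 3 h heat or 1 h recovery. P-values were adjusted by Benjamini-Hochberg within each contrast over all probe sets tested. The code was tested on simulated data. Alternatives were quantile normalization, 75th percentile scaling, a constant of 44, no filter or a 60th percentile filter, no trend, replicate number as a block, and leaving out each array. Other tools were numpy 2.4.6, pandas 2.3.3, matplotlib 3.10.9 and Python 3.11.15. Differences of probe sets with low signal are understated by the constant, and no probe set's level is compared with another's. Sequences and positions were not used here.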

Additional observations from a re-analysis of the deposited data

Results flagged for a closer look

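For 4 members with a single gene, the difference between tissues itself was called in limma's fit. For 3 h against 21 h of recovery it was 1.83 for AT1G13990 and 1.74 for AT3G47160, both larger in shoots, and −1.02 for AT2G07707, larger in roots. For 1 h against 0.5 h of heat it was 1.60 for AT2G07707 and 1.64 for PDF1.4, both larger in shoots.

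For 4 further comparisons both arrays moved one way in shoots and the other way in roots, and the difference between tissues was not tested. From 3 h to 9 h of recovery AT1G13990 was −1.40 in shoots and 0.51 in roots, and PDF1.4 was −0.81 in shoots and 0.46 in roots. At 9 h against 21 h of recovery AT3G24100 was −0.32 in shoots and 0.23 in roots, and AT5G58110 was −0.38 in shoots and 0.28 in roots. Of these 8 differences, the one of AT1G13990 in shoots was called.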

How the results depend on the processing

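The number of members depends on the thresholds: 118 with a rise of 1, 9 with a rise of 2, 10 with a recovery threshold of 0.5 and 15 with a constant of 44, but 32 after quantile normalization, 30 after 75th percentile scaling, 30 from either replicate alone and 30 with HSP17.6B and HSP17.6C kept. With the constant of 44, members called were 6 higher for 1 h against 0.5 h of heat in shoots, 0 higher and 2 lower for 9 h against 3 h of recovery in shoots, 0 lower for it in roots, 3 larger in shoots for the tissue difference at 3 h, 1 for that in the heat, and 2 higher and 3 lower between tissues at 21 h. The constant of 44 also ended calls against 21 h. At 3 h these were 244906_at (0.998), 255430_at (0.54), 256430_at (0.72) and AT1G76590 (0.90) in shoots. In roots they were 248744_at (0.82), AT3G26580 (0.90) and AT1G76590 (0.94). At 9 h they were 255430_at (0.54), 256430_at (0.68) and 261613_at (0.95) in shoots, and 248744_at (0.88), 252475_s_at (0.79) and 261613_at (0.84) in roots. Quantile normalization gave 0 higher for 9 h against 3 h in shoots, and 75th percentile scaling 2 lower between tissues at 21 h. Without AT2G07707 and AT2G07719, an alternative chosen after seeing the data, the tissue difference in the heat was called for 1.

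Leaving out 1 array at a time, counts called higher against 21 h ranged from 13 to 13 and 9 to 11 at 3 h (shoots, roots), and 10 to 11 and 10 to 10 at 9 h. For 9 h against 3 h they ranged from 1 to 1 higher and 3 to 4 lower in shoots, and 1 to 2 higher (1 without roots 9 h replicate 1) and 0 to 1 lower (0 without roots 3 h replicate 1 or roots 9 h replicate 2) in roots. For 1 h against 0.5 h of heat they ranged from 10 to 11 in shoots and 4 to 6 in roots. Tissue differences ranged from 6 to 6 and 2 to 3 at 3 h, 1 to 3 in the heat (1 without shoots 0.5 h replicate 1, shoots 1 h replicate 1, roots 0.5 h replicate 2 or roots 1 h replicate 1), and 2 to 4 (2 without shoots 21 h replicate 2) and 4 to 7 at 21 h.

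The lone array left in a group is assumed to vary like the other groups. With replicate number as a block, members called against 21 h were 13 and 10 at 3 h and 10 and 10 at 9 h, and no count of members called changed. The numbers were not shown to pair the arrays: deviations of same-numbered arrays correlated at −0.193 to 0.161 over 120 pairs of groups, with 4 above 0.1.

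Of 62 pairs of a named gene and a comparison that the rank rule picked, 34 were called, and 8 of these lost the call under at least 1 alternative. Signs turned in 12 alternatives of these pairs, none of them called. Named genes also lost calls outside these pairs. For 1 h against 0.5 h of heat in shoots, the constant of 44 ended those of AT3G47160 (1.13 to 0.89) and PDF1.4 (1.34 to 0.80). Leaving out 1 array, AT1G36730 ranged from −0.1293 to 0.0079 for 3 h against 21 h in shoots (0.0064 without shoots 3 h replicate 1), AT3G62560 from −0.0240 to 0.2242 for 9 h against 3 h in shoots, and for 1 h against 0.5 h of heat in shoots AT1G75860 from −0.3546 to 0.0294 and AT1G76590 from −0.2146 to 0.1734. PDF1.4 in roots ranged from −0.1875 to 0.1701 for 3 h against 21 h (0.0875 without roots 3 h replicate 1) and from −0.8094 to 0.2205 in the heat (0.0079 without roots 0.5 h replicate 2). In the heat in shoots, quantile normalization gave 0.0041 for AT1G75860 and 0.0310 for AT1G76590, which had 0.0751 after 75th percentile scaling. The cause was not tested. With 2 arrays per group, the number of arrays limits the precision, and low signals such as those of AT2G38465 and AT2G21820 in shoots depend most on the constant.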
